A study of Rattus norvegicus with 42 samples.

Results

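The expression profile of rat lung was followed into a mixture in which 70% of the labelled RNA came from lung, 25% from brain and 5% from liver. These amounts were set by combining biotin-labelled cRNA, the material that is hybridised to an Affymetrix array, from the separate tissues. The 3 arrays labelled 5% liver, 25% brain and 70% lung and the 3 arrays labelled 100% lung were chosen by their tissue labels, which gives 6 of the 42 arrays of the series. Pure brain, pure liver and a mixture of 70% liver, 25% brain and 5% lung, with 3 arrays each, were used to say where a transcript came from. Mixtures are written below as their percentages of liver, brain and lung, so that the 2 mixtures are 5/25/70 and 70/25/5, and "the mixture" alone means 5/25/70. All of these groups are tissue of untreated rats of 9 to 12 weeks, and the series text states that liver, brain and lung came from 1 animal. By its title, the series asks how well, and down to what amounts, tissues can be told apart in mixed profiles by statistical deconvolution. The arrays of a group are technical replicates of the same RNA, so p-values measure the spread between arrays and not that between animals.

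Lung, brain and liver use largely separate sets of specialised genes. In lung, alveolar type 2 cells make surfactant, flat alveolar type 1 cells line the air spaces, club and ciliated cells line the airways, and a dense capillary bed surrounds them. Brain RNA carries the transcripts of synapses, of myelin from oligodendrocytes and of astrocytes, and hepatocytes fill liver RNA with transcripts for plasma proteins, urea synthesis, bile acids and drug metabolism. When labelled RNA is mixed by amount, a transcript made in lung alone drops to 70% of its lung level on a linear scale, which is -0.51 on the log2 scale or 1.43-fold lower. A transcript of brain or liver alone appears at 25% or 5% of its level in that tissue.

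Levels are log2 values, where a difference of 1 is a 2-fold change, and the level of a gene is that of the probe set with the highest mean over all arrays. Levels of different probe sets cannot be compared as amounts of RNA, because probes bind with different strength. The dap control probe sets, for a bacterial RNA, averaged 2.52 in the mixture and 2.59 in lung, so folds against levels near 3 are approximate. Array medians were 5.82 to 5.83 in the mixture and 5.73 to 5.75 in lung, and the median SD between replicate arrays was 0.08 in the mixture and 0.09 in lung. The arrays carried the markers of their labels. The surfactant gene Sftpc averaged 13.81 in the mixture and 13.88 in lung, whereas Alb (albumin), Mbp (myelin basic protein) and Snap25 (a synaptic protein) averaged 5.07, 4.33 and 3.94 in pure lung. The lung marker Cdh5 was not measured here. Pure lung also held heart muscle markers, with Myh6 (atrial myosin) at 9.32 and Myl7 (atrial light chain) at 8.83, the skeletal muscle actin gene Acta1 at 9.29 and the globin gene Hbb at 13.59. Pure brain read 12.21 for Alb, against 14.31 in pure liver.

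Sex-linked genes set lung apart from the other tissues. Xist, the RNA that coats the inactive X chromosome of females, averaged 9.64 ± 0.14 in the mixture, 2.88 ± 0.03 in lung, 11.25 ± 0.07 in brain and 11.09 ± 0.03 in liver (log2, SD, n = 3 arrays each). The other 3 Xist probe sets read 2.60 to 3.58 in lung, 7.23 to 8.12 in brain and 9.64 to 10.24 in liver. Eif2s3y, a Y-linked gene, showed the opposite order, with 8.26 ± 0.03 in the mixture, 8.97 ± 0.05 in lung, 2.48 ± 0.13 in brain and 3.13 ± 0.43 in liver. Among the pure tissues Xist was thus high where Eif2s3y was low, with lung on one side and brain and liver on the other. Other Y-linked names gave no such wide gap. A probe set of Uty read 8.14 in the mixture, 8.30 in lung, 7.88 in brain and 8.88 in liver. Sry was highest in lung too, but at low levels, with 3.77 in the mixture, 4.24 in lung, 3.34 in brain and 3.89 in liver. A further Uty probe set and Tspy1 were also low, with 3.22 and 2.74 in lung. In liver the female-type cytochrome Cyp2c12 read 13.15, and the male-type Cyp2c11 and Cyp3a2 read 4.20 and 3.43. These levels go against a single animal as the source of all 3 tissues, and tissue and animal cannot be told apart in the comparisons below. The sex-linked genes were looked up after Xist had been seen among the largest rises.

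**Figure D1:**
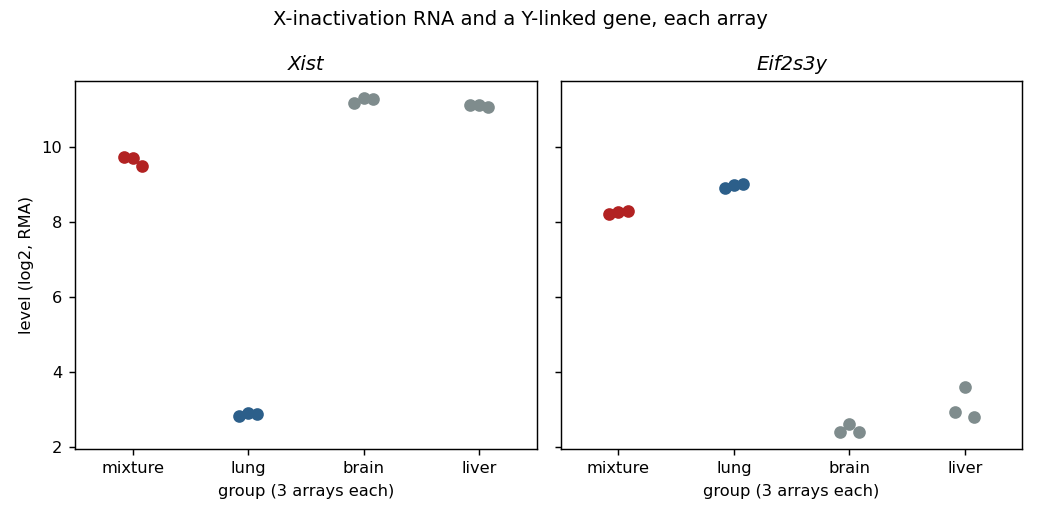
Levels (log2, RMA) of the X-inactivation RNA Xist and the Y-linked gene Eif2s3y in each of 3 arrays of the mixture, lung, brain and liver. Xist is near 2.88 in lung and over 9 in the other groups, and Eif2s3y is over 8 in the mixture and lung and near 3 in brain and liver.

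Of 31042 probe sets tested, 5436 (17.5%) were higher in the mixture than in lung and 13439 (43.3%) were lower, at adjusted p under 0.05 with no limit on the fold (limma, Benjamini-Hochberg). The rises were few but large and the falls many but small. At least 2-fold, 2117 (6.82%) were higher and 107 (0.345%) lower. Of all calls, 28.8% were higher and 71.2% lower. The split became 53.2% and 46.8% when arrays were rescaled with a curve fitted to the hybridisation controls, which are RNAs added to the arrays. Only 2746 probe sets were then higher and 2416 lower, so the number of calls depends strongly on the scaling. The median log2 difference over all probe sets was -0.21 after the curve and -0.16 as deposited, so fewer calls do not mean smaller falls. In a mixture of 60% liver, 35% brain and 5% lung, which enters the joint fit, 1 array read 9.35 for the control bioB. Its replicates read 7.88 and 7.65. Whether this array lowered the counts was not tested. On the deposited scale, with 1 probe set for each of 14217 genes, 2931 (20.6%) were higher and 6637 (46.7%) lower. At least 2-fold it was 1143 (8.04%) and 53 (0.373%). Counts over gene lists are to be read against these gene-level shares.

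Most transcripts that appeared in the lung profile belonged to brain. A rise was assigned by comparing pure brain with pure liver, which shares no array with the mixture and lung. This rule sets levels in the pure tissues side by side and leaves out that brain entered the mixture at a larger share than liver. A transcript assigned to liver or to neither can therefore have drawn more of its rise from brain. Of the 5436 probe sets that rose, 3598 (66.2%) were at least 2-fold higher in brain than in liver, 611 (11.2%) were higher in liver, and 1227 (22.6%) had neither source by this rule. Among the 2117 that rose at least 2-fold, the numbers were 1737 for brain, 296 for liver and 84 for neither. Seen from the tissues, 61.5% of the 5854 probe sets with a brain source rose, and 13.5% of the 4539 with a liver source.

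Myelin and synapse transcripts led the rises from brain. Mbp, which encodes a major protein of the myelin sheath, read 12.91, 12.94 and 12.91 in the mixture arrays, against 4.38, 4.25 and 4.36 in the lung arrays. The groups lay far apart, and the log2 difference was 8.59 ± 0.06 (SE, adjusted p = 3.43e-44), or 386-fold. Snap25, a membrane fusion protein of the synapse, read 12.43, 12.42 and 12.47 in the mixture arrays, against 3.96, 3.74 and 4.13 in the lung arrays (log2 difference 8.50 ± 0.06, adjusted p = 2.92e-43). Another myelin gene, Mobp, read 10.94, 10.96 and 10.94 in the mixture and 2.46, 2.79 and 2.69 in lung. Ptgds, the prostaglandin D synthase of brain, differed by 7.22 and Gad1, which makes the transmitter GABA, by 6.45. The remaining leading brain genes were Nefm (neurofilament, 6.44), Calb1 (the calcium-binding protein calbindin, 6.37), Pcp4 (6.29), Scg3 (a granin of secretory granules, 6.23) and Gabra6 (a GABA receptor subunit of cerebellar granule cells, 6.17), each on the log2 scale. No array of lung reached the level of any mixture array for these 10 genes, which follows from their choice as the largest rises. Over all 14217 genes the groups did not overlap, in either direction, for 10166.

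The brain gene lists rose nearly whole. Of 19 measured genes of neurons and synapses 18 were higher in the mixture (median log2 difference 4.53, against -0.16 over all probe sets). Gap43, a growth cone protein, rose by 6.07 and the neurofilament gene Nefl by 5.95, and the exception was the vesicle gene Sv2b at -0.07 (adjusted p = 0.23), whose level was 11.34 in the mixture, 11.41 in lung and 11.64 in brain. All 11 measured genes of glutamate and GABA signalling were higher (median 2.70), among them the receptor subunits Gria2 at 5.52 and Gabrb2 at 5.22. Of 11 oligodendrocyte genes 10 were higher (median 3.80), with Ermn at 4.71 and Mog, a surface protein of myelin, at 3.80, and Olig2 was at 0.16 (adjusted p = 0.23). Cerebellar and other regional neurons gave 11 of 12 higher (median 4.36), with Car8 at 0.09 (adjusted p = 0.07). Thus transcripts of several brain cell types and regions came through together.

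Astrocyte genes rose in most cases, and several of them had clear levels in lung too. Of 10 measured, 9 were higher and 1 lower (median log2 difference 1.78). S100b rose by 5.44, Aldoc (aldolase C) by 5.13 and Gfap, the filament protein of astrocytes, by 4.56. Gfap read 8.99, 8.79 and 8.86 in the mixture arrays, against 3.88, 4.38 and 4.71 in the lung arrays. Aqp4, the water channel of astrocyte endfeet, rose by 1.26 only, with 10.59, 10.62 and 10.68 in the mixture arrays and 9.17, 9.45 and 9.48 in the lung arrays. The growth factor receptor gene Fgfr3 was lower, at 10.01 in the mixture against a level of 10.35 in lung and 8.83 in brain (log2 difference -0.34 ± 0.05, adjusted p = 4.60e-07). That fall did not pass after the hybridisation-control curve.

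Among the rises assigned to liver, present at 5%, those of secreted proteins and of a few cytochromes were the largest. Alb read 14.04, 14.05 and 14.02 in the mixture arrays, against 4.96, 5.36 and 4.90 in the lung arrays (log2 difference 8.96 ± 0.06, adjusted p = 2.65e-43, 499-fold). Pure liver read 14.31, little above the mixture. On the mixture arrays Alb was the highest value measured (14.02 to 14.05), and the highest values of the liver arrays were 14.22 to 14.39. With Alb at 12.21 in brain, its rise cannot be placed in liver alone. Rup2 read 12.17, 12.34 and 12.37 in the mixture and 3.76, 3.53 and 3.41 in lung. Cyp2c12, a steroid hydroxylase of female rat liver, read 11.26, 11.36 and 11.35 in the mixture arrays, against 3.05, 3.09 and 3.11 in the lung arrays. It was 302-fold higher. The other leading genes were Cyp2c7 (8.12), Gc (vitamin D-binding protein, 7.56), Cyp2c6v1 (7.51), Apoc3 (an apolipoprotein, 7.23), A1bg (7.20), Itih3 (a plasma inhibitor heavy chain, 7.0) and Fabp1 (the fatty acid-binding protein of liver, 6.95), as log2 differences. Itih3 was also high in brain, at 11.31 against 13.26 in liver.

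All 23 measured plasma protein genes were higher in the mixture (median log2 difference 6.15). Within that list the fibrinogen chains differed: Fgb rose by 6.75 and Fga by 6.15, and Fgg, which read 9.16 in lung itself, by 1.49. The urea cycle and amino acid breakdown list had 14 of 14 higher (median 2.12). Cps1, the entry enzyme of the urea cycle, rose by 6.70, Hpd of tyrosine breakdown by 6.45 and the tryptophan dioxygenase Tdo2 by 5.64, whereas Sds, a serine dehydratase, rose by 0.27. A rise in every member of a list thus covered a wide range of sizes.

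The other lists of hepatocyte genes came through in part. For bile acid synthesis and transport 10 of 13 were higher and 2 lower (median 2.20). The bile acid ligase Slc27a5 rose by 4.09, the uptake transporter Slc10a1 by 4.04 and Slco1b2 by 3.58. Cyp7a1, the rate-limiting enzyme of bile acid synthesis, read 5.36, 5.28 and 5.37 in the mixture arrays, against 2.85, 3.31 and 2.81 in the lung arrays. Hsd3b7 was lower at -0.34 and Nr0b2 at -0.26, and both lost the call after the hybridisation-control curve. Nr0b2 also lost it without mixture array 1 or 3 or without lung array 2 or 3, with adjusted p between 0.07 and 0.10. Drug and steroid metabolism had 10 of 14 higher (median 2.73), led by the hydroxysteroid dehydrogenase Hsd17b6 at 5.36, the glucuronosyltransferase Ugt2b35 at 4.76 and the sulfotransferase Sult1b1 at 4.68. Of the rest, Cyp3a18, Adh4 and Cyp3a2 did not pass and Cyp2c11 was lower (-0.32, adjusted p = 0.02). The male-type Cyp2c11 and Cyp3a2 were low in pure liver itself, as given above. Cyp2c11 lost that call after the curve, after background subtraction and without mixture array 1 or lung array 1 or 2. Glucose production and glycogen had 3 of 5 higher, namely Slc2a2 (the liver glucose transporter, 3.55), Fbp1 (2.94) and Pck1 (2.81), both enzymes of gluconeogenesis. Gys2, the glycogen synthase of liver, was at 0.07 (adjusted p = 0.50) and Pygl, its phosphorylase, at -0.26, a call that was also lost after the curve.

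**Figure D2:**
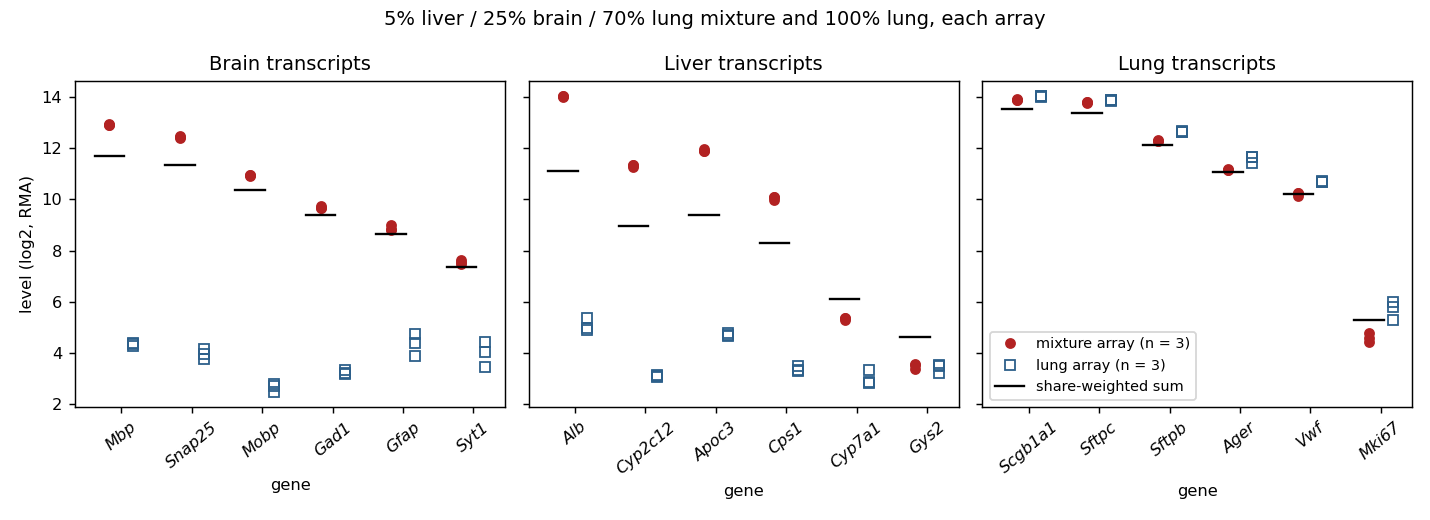
Levels (log2, RMA) of 6 brain, 6 liver and 6 lung genes in each of 3 mixture arrays (filled circles) and 3 lung arrays (open squares). Black bars mark the sum of 5% liver, 25% brain and 70% lung. Mbp, Snap25 and Alb lie above their bars, Gys2 below its bar, and Sftpc and Scgb1a1 are nearly level between mixture and lung.

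Genes with no 2-fold difference between brain and liver gave rises too. Ttr, the thyroid hormone carrier made by hepatocytes and by the choroid plexus, read 12.26, 12.27 and 12.23 in the mixture arrays, against 4.54, 4.65 and 4.35 in the lung arrays (log2 difference 7.74 ± 0.05). Xist differed by 6.77, Fabp7 (the fatty acid-binding protein of brain glia) by 5.23, Mlc1 (an astrocyte membrane protein) by 4.05 and the chloride transporter Clcn4 by 3.55. Fabp7 read 9.55 in brain and 9.17 in liver, and Clcn4 8.69 and 8.77. At levels this close, brain, with its larger share, would add more of these transcripts to the mixture than liver.

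How completely a tissue was seen differed between brain and liver and went with the signal of the probe set in the pure tissue. Whether the difference between brain and liver comes from their shares cannot be decided here, because each entered the mixture at a single share. Among probe sets at least 8-fold higher in liver than in brain, 3 of 148 (2.03%) with a liver level of 6 to 8 were higher in the mixture. The share was 101 of 462 (21.9%) at levels of 8 to 10, 216 of 343 (63.0%) at 10 to 12 and 103 of 109 (94.5%) at 12 and over. For probe sets at least 8-fold higher in brain than in liver, the numbers were 337 of 404 (83.4%), 819 of 892 (91.8%), 284 of 295 (96.3%) and 40 of 41 (97.6%) over the same ranges. Apart from the range of 6 to 8 for liver, each share lay above the 17.5% of all probe sets. The liver set includes probe sets with a level in lung: 107 of the 148 and 273 of the 462 were lower in the mixture. For liver probe sets at least 8-fold above both brain and lung, a choice that used the lung arrays, 3 of 41, 101 of 196, 210 of 229 and 95 of 95 were higher over the same ranges. Of the named genes, Gys2, Adh4 and Cyp3a18, with liver levels of 8.25, 8.57 and 8.28, did not pass as rises.

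**Figure D3:**
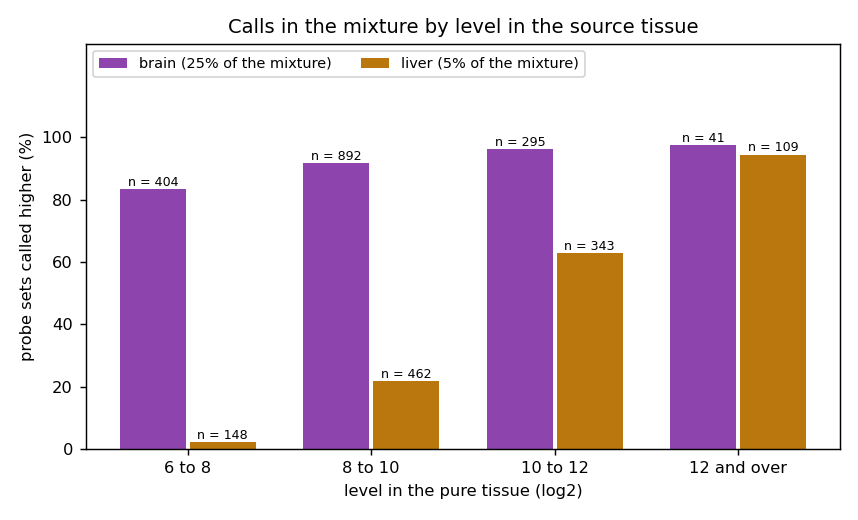
Percentage of probe sets called higher in the mixture than in lung, by level in the pure source tissue, for probe sets at least 8-fold higher in brain than in liver (purple) or in liver than in brain (ochre), those with a level in lung included. The ochre bars climb from 2.03% to 94.5% and the purple bars lie between 83.4% and 97.6%.

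Lung transcripts fell together and by little. Of the 73 measured genes on 6 lung lists, 69 were lower in the mixture, 1 was higher and 3 did not pass, with a median log2 difference of -0.50 against -0.16 over all probe sets. That median is close to the -0.51 of a dilution to 70%. After the hybridisation-control curve, 33 of the 73 were called lower, and among the genes named below Sftpb, Abca3, Sftpd, Ager and Vwf no longer passed. The median of the lung lists was then -0.60, so the loss of calls was not a loss of the fall.

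Type 2 cell genes, with those of surfactant, had the smallest median fall of the 6 lung lists. Type 2 and type 1 genes also had the highest median lung levels of these lists, 11.55 and 11.60. White blood cell genes, with the largest median fall, had the lowest, 9.29. Whether the order of the lists comes from their signal was not tested. Sftpc, the surfactant protein of type 2 cells, read 13.82, 13.82 and 13.80 in the mixture arrays, against 13.91, 13.86 and 13.88 in the lung arrays. Every mixture array was below every lung array, but the log2 difference of -0.07 ± 0.14 did not pass (adjusted p = 0.66). Sftpa1 was at -0.21 (adjusted p = 0.04) and Lamp3, of lamellar bodies, at -0.27 (adjusted p = 0.04). Sftpa1 lost its call after a repeated quantile normalization (-0.14), after the curve, after background subtraction and without any mixture array or lung array 1 or 2. Lamp3 lost it under those 3 alternatives and without any 1 of the 6 arrays. Both kept their calls when only the arrays of the compared groups were fitted (adjusted p = 0.02 for Sftpa1 and 0.006 for Lamp3). Sftpb, which spreads the surfactant film, was lower at -0.36 ± 0.05 (adjusted p = 1.03e-06), with 12.27, 12.28 and 12.34 in the mixture arrays and 12.66, 12.65 and 12.67 in the lung arrays. The lipid transporter Abca3 (-0.43), the collectin Sftpd (-0.49) and Napsa, a protease that processes surfactant proteins (-0.55), fell furthest on this list. In all, 10 of 12 type 2 genes were lower (median -0.36), and Etv5 at -0.19 did not pass (adjusted p = 0.10).

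Of 9 type 1 genes all were lower (median log2 difference -0.45). Ager, a surface receptor typical of these cells, read 11.17, 11.15 and 11.18 in the mixture arrays, against 11.67, 11.67 and 11.45 in the lung arrays. The water channel gene Aqp5 was at -0.61 ± 0.19 (adjusted p = 0.006), a call lost after background subtraction (adjusted p = 0.06), and Akap5 was at -0.64. With only the arrays of the compared groups fitted, the adjusted p of Aqp5 was 8.38e-05. Clic5 had the largest fall, -1.11 ± 0.18, but its mixture arrays were spread over 6.0, 6.99 and 5.84, with 7.46, 7.07 and 7.60 in lung.

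Airway genes gave 8 of 10 lower and 1 higher (median -0.48). Scgb1a1, the secretoglobin of club cells, read 13.95, 13.91 and 13.91 in the mixture arrays, against 14.06, 14.05 and 14.03 in the lung arrays. Its log2 difference of -0.12 ± 0.08 did not pass (adjusted p = 0.18), but passed after median centring (-0.21) and after a repeated quantile normalization (-0.38). Bpifa1, an airway defence protein, was at -0.73, Scgb3a1 at -0.71 and Dynlrb2, a dynein light chain of cilia, at -0.63. The claudin gene Cldn10 was higher, at 0.27 (adjusted p = 0.003), with a level of 7.40 in the mixture, 7.14 in lung and 8.18 in brain. It lost the call after the curve and after background subtraction.

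In the supporting tissue every measured list member was lower. Endothelium had 12 of 12 (median log2 difference -0.50), with the phosphatase Ptprb, the receptor Tie1 and the receptor Calcrl each at -0.58 and Vwf, von Willebrand factor, at -0.48. Matrix and smooth muscle had 15 of 15 (median -0.57), led by Cnn1 (calponin, -0.80), Eln (elastin, -0.76) and Pdgfrb (a receptor of mesenchymal cells, -0.75). White blood cells had 15 of 15 (median -0.62), led by Cd79b of the B cell receptor (-0.84), the cytokine Il1b (-0.81) and the chemokine Ccl3 (-0.78). The macrophage lysozyme gene Lyz2 fell by 0.13 and was the smallest of these calls (adjusted p = 0.048).

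**Figure D4:**
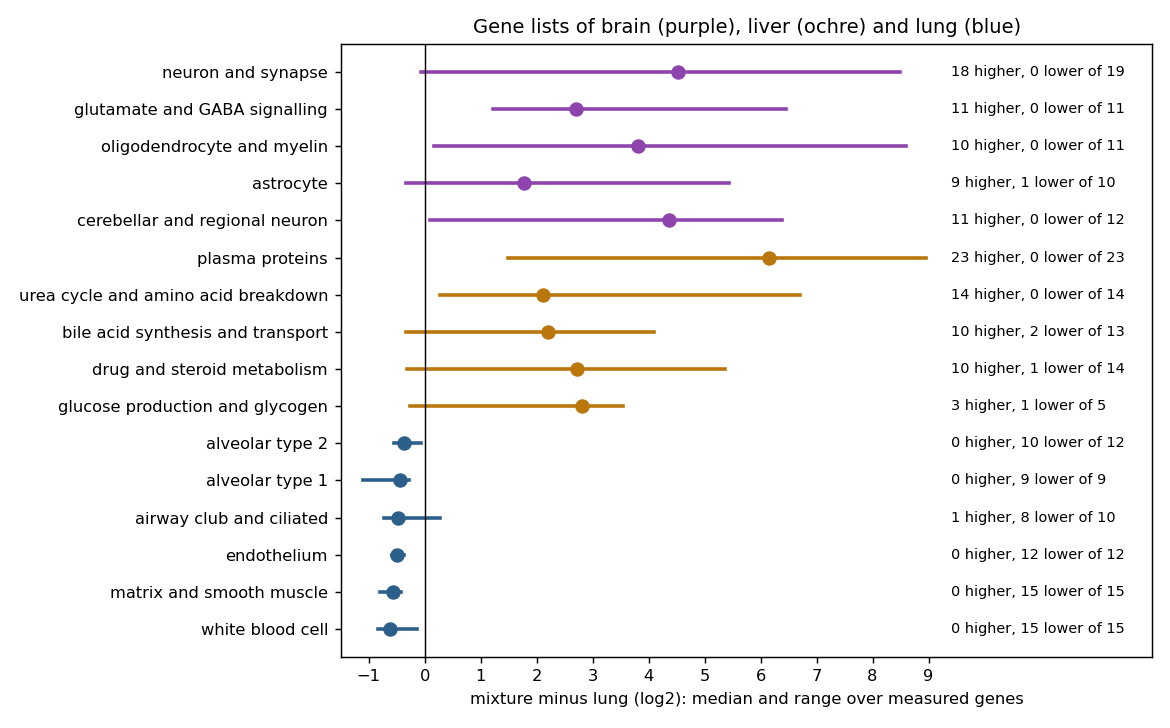
Mixture minus lung (log2) for the measured genes of 5 brain, 5 liver and 6 lung lists, with the median as a point and the lowest to highest gene as a line, and the numbers called higher and lower at the right. Brain and liver medians lie between 1.78 and 6.15, and lung medians between -0.36 and -0.62.

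The largest falls were of genes with low levels in lung. Lrrc8e, an ion channel subunit, read 4.12, 3.89 and 4.31 in the mixture arrays, against 5.54, 5.32 and 5.89 in the lung arrays (log2 difference -1.48 ± 0.11, adjusted p = 5.07e-14). The groups did not overlap, and the mixture was 2.79-fold lower, near the levels of 2.71 in brain and 3.07 in liver. Next came Myoz1 (a muscle Z-disc protein, -1.44), Stfa3 (a stefin, -1.41), Rgs1 (a regulator of G proteins in lymphocytes, -1.32), Calml3 (-1.27), the potassium channel Kcnk6 (-1.24), the GABA receptor subunit Gabrp (-1.24) and Tnnt3 (fast muscle troponin T, -1.22). Acap1 was at -1.21, Mmrn1 and Gata5 at -1.20 and Ccn5 at -1.18. Ccn5, with a lung level of 8.23, was the only 1 of these 12 genes above 8 in lung.

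A drop larger than dilution to 70% was found for 776 probe sets (2.50%). All 12 of the genes just named were among them, which follows in part from their choice as the largest falls. Of all genes it was 392 (2.76%), and of the 73 lung list genes 7, for example Clic5, Bpifa1, Cnn1 and Eln. To set foreign signal aside, probe sets with levels under 5 in both brain and liver were grouped by their lung level. This grouping used the lung arrays, so that probe sets fell at lung levels of 6 and over was largely set by the choice. Of 415 with a lung level of 6 to 8 all were lower in the mixture and 182 (43.9%) were beyond dilution (median log2 difference -0.76). Of 84 at 8 to 10 it was 12 (14.3%, median -0.67). None of 18 at 10 to 12 (median -0.58) and none of 8 at 12 and over (median -0.29) was beyond dilution. Most of these probe sets, 9317, had a lung level under 6, and of them 37.9% were lower and 293 (3.14%) beyond dilution (median -0.18). Above that lowest range, the median fall shrank from each range to the next higher one. The count of 776 depends on the scaling: it was 34 after the hybridisation-control curve and 1601 after median centring.

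The level of each transcript was next set against the share-weighted sum, which adds 5% of the liver level, 25% of the brain level and 70% of the lung level on the linear scale. Of all probe sets 98.1% were within 1.5-fold of it, and the median departure was -0.18 on the log2 scale. Above the sum by a call at 1.5-fold were 67 (0.216%) and below it 519 (1.67%). By gene it was 55 above (0.387%) and 265 below (1.86%), of which 43 and 197 had a liver source. Liver transcripts were therefore found on both sides of the sum. Departures were far more frequent among probe sets of liver than over all probe sets. Of 561 at least 8-fold higher in liver than in brain and lung, 48 were above the sum and 230 below. Of 1031 chosen likewise for brain it was 14 and 1, and of 451 for lung 0 and 9.

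Above the sum were genes of hepatocytes with high signals. Alb was observed at 14.04 against a sum of 11.12, a log2 departure of 2.92 that is approximate because its mixture and liver levels lie at the top of the range of the arrays. The part of that limit in this and the following departures was not tested. Rup2 exceeded it by 2.87, Apoc3 by 2.52, Cyp2c7 by 2.39 and Cyp2c12 by 2.37. Of the 23 plasma protein genes 17 were called above the sum and none below. From brain, Mbp was observed at 12.92 against a sum of 11.72 (departure 1.20) and Snap25 at 12.44 against 11.34 (departure 1.10), and 4 of 63 brain list genes were called above. Mobp exceeded the sum by 0.59.

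Below the sum were liver genes with lower signals. Apon, an apolipoprotein gene, was observed at 4.04 against a sum of 5.63, although its liver level was 9.76 (log2 departure -1.59 ± 0.07, adjusted p = 2.89e-19). Serpina7, the thyroxine-binding globulin gene, departed by -1.55, Cd5l of resident macrophages by -1.49, Glyatl2 by -1.49 and the phosphate transporter Slc17a1 by -1.38. These 5 genes still rose in the mixture, with Apon at 1.40 and Slc17a1 at 0.47. The Slc17a1 arrays overlapped, at 4.58, 4.77 and 4.23 in the mixture and 4.26, 3.90 and 4.02 in lung, and its rise did not pass after the curve. In the bile acid list 5 of 13 genes were below the sum and none above.

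The same order appears as the share of a tissue that a probe set implies when the other tissues enter at their labelled amounts. For 1031 probe sets at least 8-fold higher in brain than in lung and liver, the median implied share of brain was 28.3%, against 25% labelled. By brain level it was 23.3% at 6 to 8, 28.2% at 8 to 10, 31.5% at 10 to 12 and 37.0% at 12 and over. Mbp implied 57.7% ± 0.8 and Snap25 53.7% ± 0.9 brain (SD, n = 3 arrays). For 561 liver probe sets the median was 2.54%, against 5% labelled, with 0.337%, 1.15%, 3.45% and 8.01% over the same ranges of liver level. The implied share of liver was 27.8% ± 1.1 for Cyp2c12, 17.8% ± 0.8 for Cps1 and 1.18% ± 0.10 for Apon. For 451 lung probe sets it was 63.7%, against 70% labelled, with 56.4%, 62.3%, 67.8% and 78.5% by lung level. Sftpc implied 95.0% ± 0.7 and Scgb1a1 91.8% ± 1.6 lung, and Vwf 69.2% ± 3.5. In all 3 tissues the implied share climbed with the signal in the pure tissue, and it was over the labelled share at the top. For brain it was over the labelled share from levels of 8 to 10 on, and for 812 of the 1031 probe sets.

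**Figure D5:**
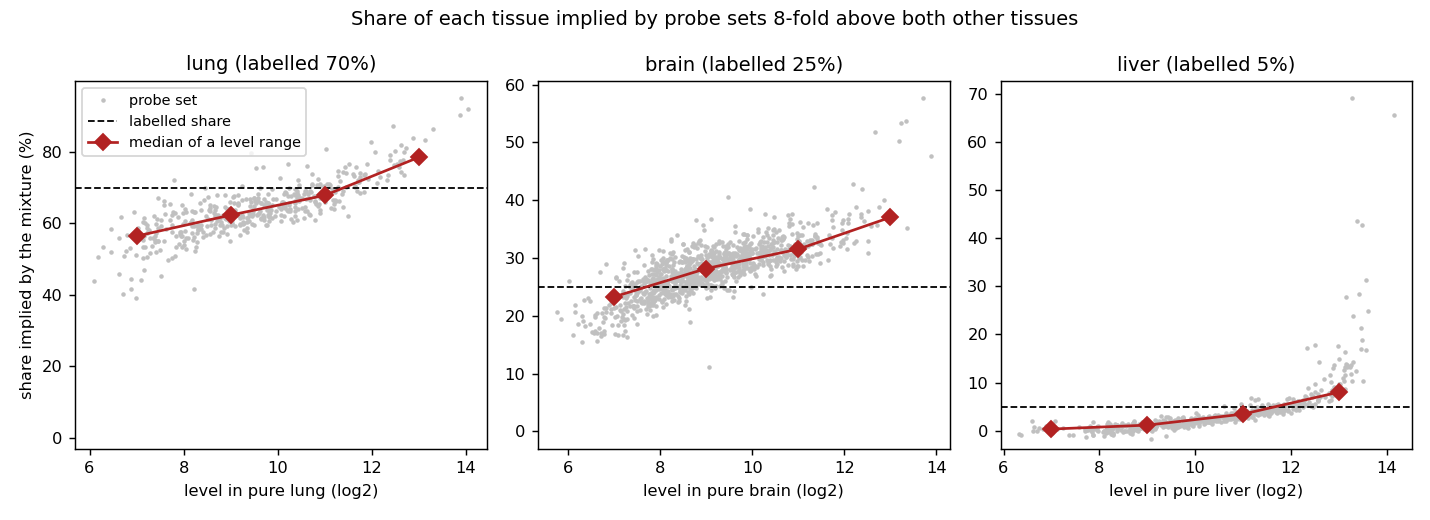
Share of lung, brain or liver (%) implied by the mixture for each probe set at least 8-fold above both other tissues (grey), against its level in the pure tissue (log2), with the median of each level range (red) and the labelled share (dashed). The red medians climb from 56.4% to 78.5% in lung, from 23.3% to 37.0% in brain and from 0.337% to 8.01% in liver.

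The 25% of brain could also be compared with the same amount in a liver background, the 70/25/5 mixture. Over all probe sets 9510 (30.6%) were higher in 5/25/70 and 9518 (30.7%) lower, and of all genes 37.3% and 32.7%. Of the 1031 brain probe sets 933 were lower in 5/25/70 than in 70/25/5 and 3 higher, with a median log2 difference of -0.45. The difference was -0.55 at brain levels of 6 to 8, -0.47 at 8 to 10, -0.31 at 10 to 12 and -0.004 at 12 and over. Gabra6 averaged 9.04 in 5/25/70 and 9.54 in 70/25/5 (log2 difference -0.50 ± 0.06, adjusted p = 1.28e-08), and Gad1 averaged 9.68 and 10.07 in that order. For Mbp (12.92 and 12.80) and Snap25 (12.44 and 12.36) the difference did not pass, with adjusted p of 0.07 and 0.28.

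The gap at matched brain share turned on the scaling. Of 63 brain list genes 41 were lower in 5/25/70 as deposited (median log2 difference -0.34), 24 after background subtraction, and 1 after the hybridisation-control curve, when the median was 0.01. The curve moved the median of all probe sets from -0.05 to 0.42, and relative to it the brain lists were at -0.29 as deposited and at -0.41 after the curve. The dimmest of these controls, bioB, read 7.58 in 5/25/70, 8.06 in 70/25/5, 7.55 in lung and 8.48 in liver. The brightest, cre, was lower in the liver-rich groups, with 13.32 in 5/25/70, 13.19 in 70/25/5, 13.22 in lung and 13.02 in liver, and bioD read 11.16 in 5/25/70 and 11.18 in 70/25/5. Whether the controls were added in equal amounts was not tested.

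Respiratory chain and ribosomal protein genes, which all cells use, gave small differences. Of 15 respiratory chain genes 14 were higher in the mixture (median log2 difference 0.34), with the complex I subunits Ndufs1 at 0.59 and Ndufa4 at 0.45 and the ATP synthase subunit Atp5f1a at 0.51. Ndufs1 read 8.81 in lung, 10.16 in brain and 9.79 in liver. Ribosomal protein genes had 4 of 7 lower and none higher (median -0.11), with Rps3 at -0.21, Rplp0 at -0.19 and Rps6 at -0.13. The calls of these 6 genes were lost after the curve, and that of Rps6 also when only the arrays of the compared groups were fitted (adjusted p = 0.06). Among reference genes Pgk1, a glycolytic enzyme, was 1.97-fold higher, and Ywhaz at 0.37 and Hprt1 at 0.27 on the log2 scale lost their calls likewise. Larger falls were found for cell division, where all 8 measured genes were lower (median -0.71), led by Mki67 (-1.10), Ccna2 (-0.84) and Bub1 (-0.81). The median lung level of these 8 genes was low, at 5.31. Mki67, a nuclear protein of dividing cells, read 4.44, 4.75 and 4.56 in the mixture arrays, against 5.30, 5.78 and 5.98 in the lung arrays.

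Cells found in more than 1 of these tissues gave mixed lists. Of 10 microglia genes 1 was higher and 6 lower. The higher one was P2ry12, a purine receptor of microglia, at 0.44. Among those lower were Aif1, also made by other macrophages, at -0.57 and Tmem119 at -0.49. Choroid plexus genes split evenly, with 3 of 6 higher (Otx2 at 1.26, Sostdc1 at 0.90) and 3 lower (Aqp1, a water channel that lung endothelium also makes, at -0.55). Heart muscle genes had 6 of 9 lower, for example Myl4 at -0.88 and Mb (myoglobin) at -0.81, whereas Ryr2, the calcium release channel that neurons also use, was at 2.18. Skeletal muscle genes had 5 of 7 lower, red cell genes 3 of 4 and fat genes 4 of 6, with Ckm at -0.82, Hbb at -0.19 and Adipoq at -0.81. Of the early response and heat shock genes Egr1 was higher at 1.25 and Fos at 0.56, and Atf3 was lower at -1.01. Of the genes in this paragraph other than Tmem119, those that lost their calls after the curve were P2ry12, Aif1, Aqp1, Hbb and Fos. The mixture was made by combining labelled RNA, so these differences do not describe changes in cell number or in RNA per cell.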

How the data were processed

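Per the series text and labels, Trizol-extracted RNA was labelled with biotin (1 µg input) and hybridised to Affymetrix rat arrays after mixing at the cRNA level. The log2 values per probe set deposited by the authors came from RMA, per the labels and the submitters' processing notes, with a version not given in the sources used here. Arrays are normalized together by this method, which may scale tissues of unlike RNA make-up unevenly. From 31099 probe sets 57 controls were removed.

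The 42 arrays were fitted jointly by group in limma 3.58.1 (R 4.3.3), giving 28 residual degrees of freedom and 4.56 prior ones, and p-values were Benjamini-Hochberg adjusted over 31042 probe sets. The number of arrays limits the precision. By the platform annotation, 20826 probe sets had 1 symbol, 436 several and 9780 none listed, and 68 symbols had no match in the current gene table. Each of 14217 genes was taken at its probe set with the highest mean.

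A fall beyond dilution was tested as mixture minus lung minus log2 of 0.70. Departures used linear pure means, with errors by the delta method, and were called at 1.5-fold. Implied shares used probe sets 8-fold above both other tissues. Named were the 10 largest rises each of brain and liver source, 5 of neither, the 12 largest falls, the 5 largest departures each way, 3 leading members of each list with up to 3 called against it, and markers. Members of the lists, rules and alternatives were chosen with earlier results of these data known, and a few further list members are named as examples. Steps were tested on simulated arrays. Replicate arrays were not identical (0 identical pairs, lowest correlation 0.996). Python 3.11.15 and matplotlib 3.10.9 drew the figures.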

Additional observations from a re-analysis of the deposited data

How the results depend on the processing

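Median centring of each array gave 227 probe sets at least 2-fold lower, 1601 beyond dilution and 1354 below the share-weighted sum. The curve through the hybridisation controls gave 2746 higher, 2416 lower and 34 beyond dilution, sources of 2313 (brain), 347 (liver) and 86 (neither), 42 above and 22 below the sum, 1454 lower in 5/25/70 than in 70/25/5, 33 lung list genes lower and 1 brain list gene lower at matched brain share. Leaving out dim probe sets gave 59 at least 2-fold lower. With 1 probe set per gene, which tests fewer features, there were 2980 higher, 6767 lower, 1143 and 53 at least 2-fold higher and lower, 396 beyond dilution, sources of 1782 (brain) and 739 (neither), 265 below the sum, and 5369 higher and 4759 lower at matched brain share. Subtracting the 5th percentile as background gave 970 at least 2-fold lower, 2352 below the sum and 24 brain list genes lower at matched share. Weighting log2 instead of linear values gave 2204 above and 43 below the sum, and subtracting the median departure gave 142 above, 177 below and 174 beyond dilution. Assigning sources with no fold limit left 149 with neither. The cause of the changes with scaling and background was not tested.

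Leaving out 1 array at a time, the counts stayed within 5167 to 5237 higher, 12097 to 12258 lower, 2105 to 2136 and 108 to 152 at least 2-fold higher and lower, 594 to 675 beyond dilution, 66 to 70 above and 514 to 618 below the sum. Of 138 named genes 100 kept their call under each alternative run, and none of those called on the deposited values changed sign. For genes not called there, a change of sign without a call was not recorded. No paired analysis was possible because the labels give no replicate numbers.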
